A study of Rattus norvegicus with 20 samples.

Results

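The stretch by inhibitor interaction is the difference between 2 stretch effects measured in the same animals: the effect of cyclic stretch in cells given an inhibitor of the kinase PERK, minus the effect of the same stretch in cells given vehicle. It was formed per gene as (S_PI minus NS_PI) minus (S minus NS) on the log2 scale, so all 20 of the 20 libraries of the series were members. A positive value means that the stretch effect was more positive with the inhibitor. Type II pneumocytes isolated from Sprague-Dawley rats were cultured for 4 days on fibronectin-coated silastic, where they took on features of type I cells. NS cells stayed unstretched under 0.01% DMSO for 24 h, and S cells had 18 h in the same vehicle before 6 h of biaxial stretch at 15 cycles per min to a 25% change in surface area. NS_PI and S_PI cells followed the same 2 schedules with GSK2606414, the PERK inhibitor, at 1 µM, and no DMSO content is recorded for them. Each group held 5 libraries, 1 from each of 5 animals, and each library pooled 4 monolayers of that animal.

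PERK, encoded by Eif2ak3, is one of the kinases that phosphorylate the translation factor eIF2 alpha, a step known as the integrated stress response. When eIF2 alpha is phosphorylated, most protein synthesis slows but the mRNA of the transcription factor ATF4 is translated more, and its targets include genes for amino acid uptake, amino acid synthesis and the charging of transfer RNA. The inhibitor acts on the kinase and not on its mRNA, so the level of Eif2ak3 mRNA is no check of the treatment. ATF4 acts through composite sites known as CARE, for C/EBP-ATF response element.

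Between 999209 and 3131541 reads per library were assigned to genes, and a count of 3 corresponded to 1.07 to 3.05 CPM, the unit used here for counts scaled to a common library total. The 3' end libraries give about 1 read position per transcript, so CPM was not divided by gene length and levels are compared only within a gene. Among the type I markers, Pdpn (mean 1827 CPM) and Ager (499.7 CPM) were well detected. The water channel Aqp5 stood at 3.03 CPM and was too low to test, and Rtkn2 (0.491 CPM) and Spock2 (0.104 CPM) were lower still. Of the type II markers, Ctsh (1056 CPM), Napsa (191 CPM) and Lamp3 (123 CPM) were detected. The type II markers Sftpc (11.9 CPM), Sftpb (7.33 CPM) and Slc34a2 (1.08 CPM) were low. The libraries also held RNA of leukocyte (Tyrobp, 307 CPM), fibroblast (Col1a1, 5490 CPM) and airway secretory (Scgb1a1, 1467 CPM) markers. Within each list the markers differed. Of the fibroblast and smooth muscle markers Vim (2343 CPM), Acta2 (1062 CPM) and Col3a1 (553 CPM) were high too, but Col1a2 (1.63 CPM) and Pdgfra (3.90 CPM) were low. Of the leukocyte markers Laptm5 (718 CPM) was high, but Itgam (1.02 CPM), Cd3e (0.041 CPM) and Marco (0.031 CPM) were low. Other airway markers were low, among them Scgb3a2 (0.902 CPM) and Bpifa1 (0.957 CPM). In such bulk RNA, fewer cells of a type and less RNA per cell cannot be told apart.

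No gene was called for the interaction. Of 8320 genes tested by the edgeR quasi-likelihood test with group and animal in the fit, 0 had an adjusted p below 0.05 (0% called), and the smallest adjusted p was 0.984. At an unadjusted p below 0.05 there were 345 genes (4.15%), 173 with a positive interaction (2.08%) and 172 with a negative one (2.07%). The p values were spread nearly evenly from 0 to 1, with 345 genes in the lowest of 20 equal bins and 379 to 460 in each of the others. By comparison, stretch alone called 2075 genes without inhibitor (24.9%) and 2534 with it (30.5%) in the same fit.

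**Figure D1:**
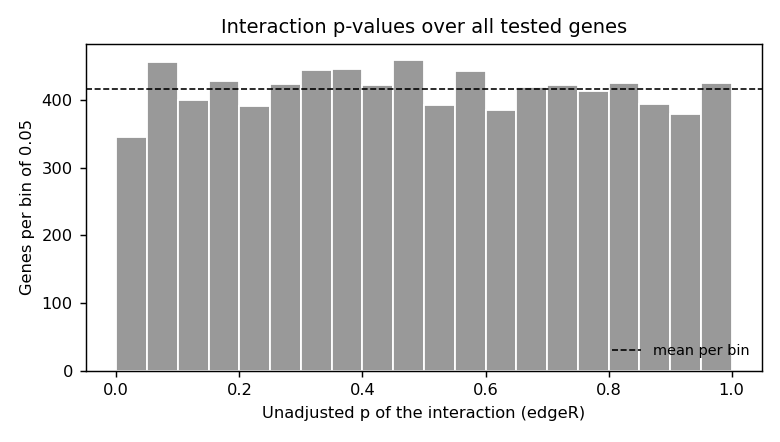
Number of the 8320 tested genes (vertical axis) by unadjusted edgeR p of the interaction (horizontal axis, 20 bins of equal width). The lowest bin holds 345 genes, fewer than every other bin.

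DESeq2 called 2 genes higher and 1 lower, the low-count genes Dusp27, Trpm8 and Tmem114, which had 5, 4 and 9 counts over all 20 libraries. On the genes that passed the edgeR filter DESeq2 called 0, with 140 positive and 169 negative genes at an unadjusted p below 0.05. A limma test on 1 contrast value per animal also called 0, with 723 genes at an unadjusted p below 0.05 (8.69%) and a smallest adjusted p of 0.189.

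The precision set a bound on what could be seen. The median standard error of a gene's log2 interaction was 0.29, and the median 95% interval reached 0.60 to either side of the estimate. For 5558 genes (66.8%) the whole interval lay within 1 log2 unit of 0, so that for these genes a 2-fold difference between the stretch effects lay outside the interval. For the remaining genes the interval did not exclude an interaction of that size. The median interaction over all genes was 0.00, 4185 of 8320 genes (50.3%) were positive, and 111 genes had an estimate beyond 1 log2 unit in either direction.

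Both stretch effects called largely overlapping genes. A total of 1468 genes were called in the same direction in both, which is 70.7% of the genes called without inhibitor and 57.9% of those called with it, and 0 were called in opposite directions. Genes that rose without inhibitor had a median log2 stretch effect of 0.73 there and 0.69 with inhibitor, and genes that fell had medians of -0.84 and -0.76. When genes were taken instead from the calls with inhibitor, the medians were 0.76 with and 0.57 without it for those that rose, and -0.86 and -0.67 for those that fell. In each case the contrast that picked the genes had the median farther from 0. Across all tested genes, which are not independent replicates, the 2 stretch effects had a Pearson r of 0.84, and they shared the animals but no library.

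**Figure D2:**
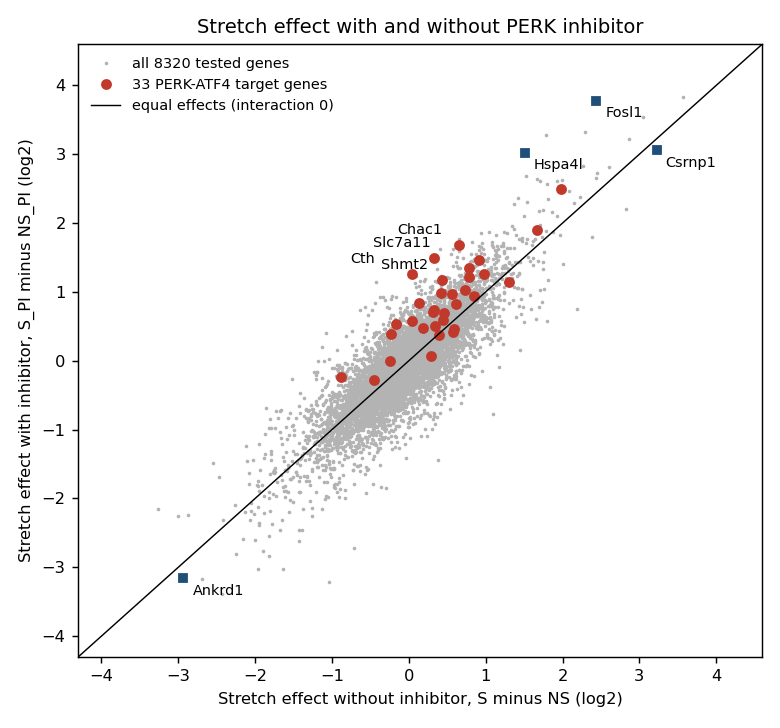
Log2 stretch effect with inhibitor (S_PI minus NS_PI, vertical axis) against that without (S minus NS, horizontal axis) for 8320 genes, with the 33 ATF4 response genes as large round points and the line of equal effects drawn. The genes lie around the line (r = 0.84) and none was called for a departure from it.

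The genes with the largest average stretch effects, 5 higher and 5 lower, were picked after their values were seen, and none of them was called for the interaction. Csrnp1, an immediate-early transcription factor, rose by 3.22 without inhibitor and 3.06 with it (log2, adjusted p 4.2e-10 and 9.8e-10), an interaction of -0.17 ± 0.25 (SE). Klf4, a transcription factor of epithelial differentiation, rose by 2.60 and 2.81, an interaction of 0.20 ± 0.38. Ankrd1, a stretch-responsive cofactor of muscle and epithelium and a YAP target, fell by 2.93 and 3.16, an interaction of -0.23 ± 0.36. For Csrnp1 and Ankrd1 the 95% intervals of the interaction (-0.69 to 0.36 and -0.97 to 0.51) lay within 1 log2 unit of 0. Serpinb2, an inhibitor of plasminogen activators, rose by 3.04 and 3.55, and its interval was much wider, at -0.95 to 1.95. Among the rest, Fosl1 (1.33 ± 0.51) and the tubulin Tuba8 (1.10 ± 0.43) had an unadjusted p below 0.05. The collagenase Mmp13 (1.03 ± 0.59), RGD1563692 (0.64 ± 0.50), the chemokine Ccl1 (-0.95 ± 0.60) and the sodium channel subunit Scnn1g (-0.48 ± 0.64) did not.

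Targets of ATF4 leaned to positive interactions, although none was called. Of 43 listed genes of the PERK and ATF4 response, 33 could be tested. Their median interaction was 0.40, against 0.00 for all genes tested, and 28 of the 33 were positive, against 50.3% of all genes. At an unadjusted p below 0.05, 8 were positive and 0 negative, beside 2.08% and 2.07% of all genes: Cth, Slc7a11, Chac1, Shmt2, Asns, Slc1a5, Atf3 and Slc7a1. A closer background is the 1848 genes called higher for the average stretch effect, of which 62.0% were positive, with a median of 0.08. The share was also high in some lists with no member in the ATF4 list: 28 of 34 ribosome biogenesis genes (median 0.16) and 11 of 13 growth factor genes (median 0.28). It was low in others, such as 30 of 76 cytosolic ribosomal proteins. The ATF4 list was assembled with earlier results of these data known, its members are linked by common regulation, and no test of it was made.

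Motifs of the CARE type, spelled TGATGNAA and searched on both strands, were looked up in RefSeq promoters of build GRCr8, which span 250 bases before to 50 after a gene's start. The motif occurred in 5 of the 27 promoters found for the 33 ATF4 response genes (18.5%, exact 95% interval 6.30 to 38.1%) and in 122 of 6839 promoters of all tested genes (1.78%). It also occurred in 7 of 20 promoters of aminoacyl-tRNA synthetases (35.0%, interval 15.4 to 59.2%). The intervals cover counting error only, and the lists hold textbook ATF4 targets, so the share says what these promoters contain and nothing about binding. The stretches below, 5' to 3' on the strand of the gene with the motif in capitals, are shown to let the motif be compared between genes whose interactions differed in size.
Chac1, chr3:126795948-126795987, plus strand: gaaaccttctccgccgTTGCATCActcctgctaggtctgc
Slc7a1, chr12:11664442-11664481, plus strand: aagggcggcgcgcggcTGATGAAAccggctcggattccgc
Trib3, chr3:161275534-161275570, minus strand: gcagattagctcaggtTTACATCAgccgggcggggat
Herpud1, chr19:10614868-10614907, minus strand: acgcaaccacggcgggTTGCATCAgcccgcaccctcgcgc
Iars, chr17:15193653-15193692, minus strand: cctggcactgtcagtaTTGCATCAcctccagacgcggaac
Mars, chr7:65023754-65023786, minus strand: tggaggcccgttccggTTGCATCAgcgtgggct
The estimates were positive for all genes shown but Herpud1. The signs of Herpud1 and Trib3 were not determined. Their estimates were smaller than their standard errors and changed sign when an animal was left out. Other promoters of these lists that hold the motif are not shown. Chac1 stood at 1.03 ± 0.41, Mars at 0.63 ± 0.28, Slc7a1 at 0.55 ± 0.24, Iars at 0.43 ± 0.23, Trib3 at 0.23 ± 0.29 and Herpud1 at -0.16 ± 0.26 (log2 ± SE).

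The kinase and its direct effectors gave interactions within about 2 standard errors of 0. Eif2ak3, the targeted kinase, had means of 124, 159, 121 and 228 CPM in NS, S, NS_PI and S_PI, and an interaction of 0.53 ± 0.31. Its mRNA rose with stretch under inhibitor (log2 0.85, adjusted p 0.0056) and was 0.32 without inhibitor (adjusted p 0.30), and the difference between these was not called. Atf4 mRNA, in animals 1 to 5, stood at 953, 1734, 1887, 1496 and 1389 CPM in NS and at 1923, 3848, 3298, 3213 and 2396 CPM in S. With the inhibitor it was 977, 1088, 1122, 1423 and 1416 CPM unstretched and 2221, 3714, 3310, 3058 and 2424 CPM stretched. Every stretched library was above every unstretched one, and Atf4 rose by 0.97 without and 1.26 with inhibitor, an interaction of 0.29 ± 0.21.

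Ddit3, the transcription factor CHOP that acts downstream of ATF4, rose in both arms. Its levels in animals 1 to 5 were 37.4, 74.0, 92.4, 104 and 77.0 CPM in NS and 111, 110, 134, 170 and 144 CPM in S. Under inhibitor they were 49.3, 61.3, 69.1, 89.2 and 86.9 CPM in NS_PI and 89.4, 138, 125, 201 and 132 CPM in S_PI. The stretched and unstretched groups did not overlap in either arm, though with inhibitor the highest unstretched and lowest stretched libraries nearly met. Ddit3 rose by 0.84 and 0.94, and the interaction of 0.09 had an interval of -0.33 to 0.51. Ppp1r15a, the phosphatase subunit GADD34 that reverses eIF2 alpha phosphorylation, rose by 1.98 and 2.50, an interaction of 0.51 ± 0.35.

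Trib3, a pseudokinase induced by ATF4 and CHOP, had an interaction of 0.23 ± 0.29 that varied from -1.42 in animal 1 to 1.41 in animal 3. It was 21.7, 120, 87.4, 91.9 and 90.6 CPM in NS and 64.4, 124, 63.0, 161 and 133 CPM in S. It was 18.6, 49.6, 25.8, 58.5 and 55.7 CPM in NS_PI and 20.1, 83.0, 50.7, 110 and 83.2 CPM in S_PI. Both inhibitor groups were lower than their vehicle groups in every animal, by 0.98 unstretched and 0.75 stretched on the log2 scale, and neither difference was called.

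Slc7a11, the cystine importer xCT, had the clearest interaction in the list, 1.16 ± 0.32 (p 0.0017, adjusted p 0.984), and was positive in 5 of 5 animals. In animals 1 to 5 it stood at 26.3, 111, 139, 89.0 and 92.2 CPM in NS and at 54.8, 125, 90.8, 148 and 140 CPM in S. With inhibitor it was 23.7, 56.3, 54.3, 56.2 and 39.4 CPM in NS_PI and 96.3, 97.004, 101, 156 and 178 CPM in S_PI. NS and S overlapped, while every S_PI library was above every NS_PI library. The stretch effect was 0.33 without inhibitor (adjusted p 0.30), and Slc7a11 rose by 1.49 with it. The stretched groups had similar means, 112 ± 38.8 and 126 ± 38.4 CPM (SD, n = 5), and the unstretched means were 91.4 ± 41.4 for vehicle and 46.0 ± 14.3 for inhibitor.

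Shmt2, the mitochondrial enzyme that splits serine to feed one-carbon units, showed the same arrangement. Its levels were 32.3, 44.4, 78.8, 74.8 and 81.4 CPM in NS and 62.4, 61.7, 76.0, 105 and 109 CPM in S. They were 27.0, 27.1, 49.0, 41.8 and 38.6 CPM in NS_PI and 81.9, 70.8, 75.2, 95.3 and 79.1 CPM in S_PI. Again NS overlapped S, and NS_PI lay wholly below S_PI. The interaction was 0.73 ± 0.24, and the 5 animals lay between 0.59 and 0.88.

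Chac1, a glutathione-degrading enzyme, stood at 38.3, 42.9, 36.0, 27.7 and 36.3 CPM in NS and 19.6, 92.4, 70.5, 56.9 and 61.8 CPM in S. It stood at 25.1, 11.7, 21.1, 32.5 and 33.4 CPM in NS_PI and 42.4, 113, 89.2, 80.8 and 86.6 CPM in S_PI. In S the animal 1 library lay below all NS libraries, whereas all S_PI libraries lay above all NS_PI libraries. The interaction was 1.03 ± 0.41 and was positive in 5 of 5 animals, from 0.27 to 2.07. Asns, asparagine synthetase, had an interaction of 0.70 ± 0.33 with no call for stretch in either arm. Its range was 50.1 to 91.8 CPM in NS, 40.3 to 78.5 CPM in S, 30.2 to 39.9 CPM in NS_PI and 34.8 to 69.3 CPM in S_PI, so NS and NS_PI did not overlap.

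**Figure D3:**
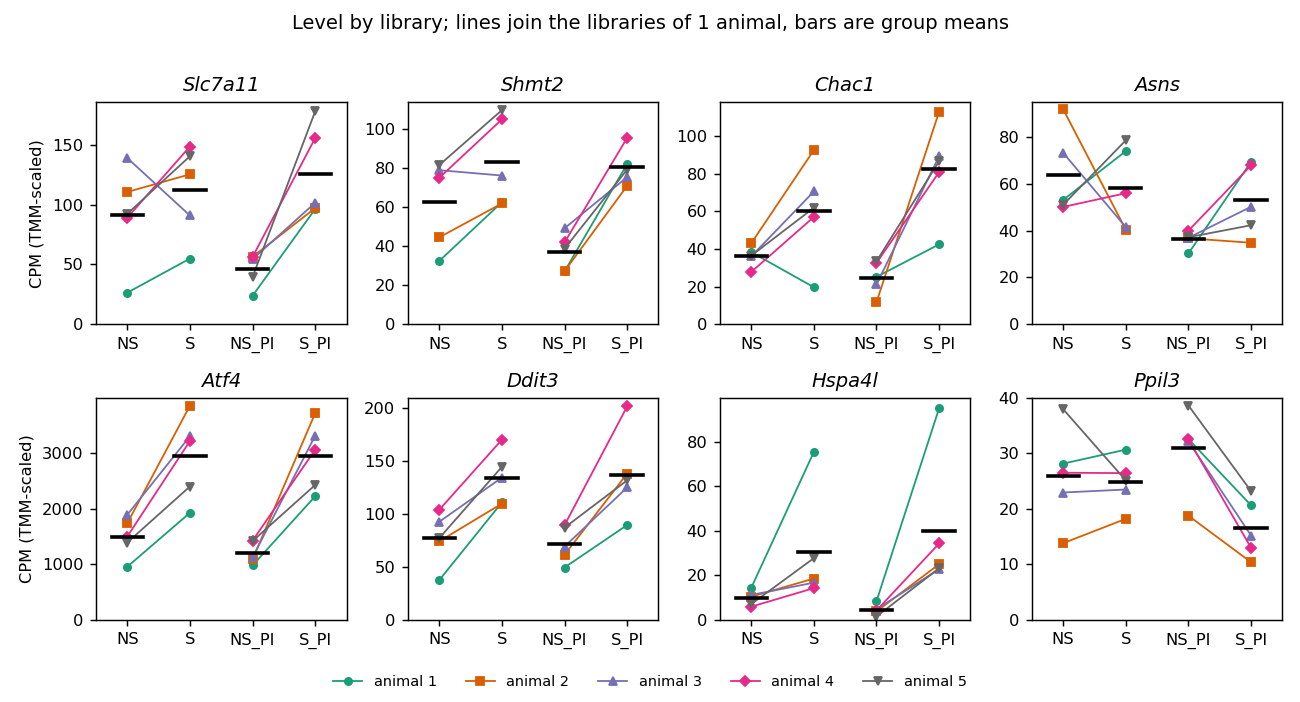
CPM (vertical axis, linear from 0) of 8 genes in each of the 20 libraries, by group, with lines joining the stretched and unstretched library of an animal and bars at the group means. For Slc7a11 and Shmt2 the S and S_PI libraries overlap while the NS_PI libraries lie below most NS libraries; for Atf4 and Ddit3 the stretched libraries lie above the unstretched ones of the same arm.

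For the whole ATF4 list, the medians of the 4 simple contrasts were 0.44 for stretch without inhibitor, 0.83 for stretch with it, -0.51 for inhibitor against vehicle in unstretched cells, and -0.07 for inhibitor against vehicle in stretched cells. In unstretched cells 28 of the 33 genes were lower with inhibitor, 16 of them at an unadjusted p below 0.05, beside 2.91% of all genes (2.56% were higher at that p). In that contrast 0 of 8320 genes were called (0%), with 455 genes (5.47%) at an unadjusted p below 0.05. In stretched cells 19 of the 33 were lower, 3 of them at an unadjusted p below 0.05, and 1 was higher at that p, beside 1.94% and 2.15% of all genes. In that contrast 0 genes were called as well (0%), with 340 genes (4.09%) at an unadjusted p below 0.05. Each of these contrasts shares libraries with the interaction: NS and NS_PI enter both with opposite signs, so a low NS_PI level raises the interaction. Stretch itself called 11 of the 33 higher and 1 lower without inhibitor, beside 12.5% and 12.4% of all genes. With inhibitor it called 23 higher and 0 lower, beside 15.2% and 15.3% of all genes.

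The values of the animals differed. Each animal had 1 library per group, so a difference between animals cannot be told apart from noise of single libraries. The mean interaction over the 33 genes was -0.16 in animal 1, 0.73 in animal 2, 0.86 in animal 3, 0.25 in animal 4 and 0.21 in animal 5, and the means over all tested genes lay between -0.02 and 0.02. Animal 1 was the only one with a negative mean, and animals 2 and 3 were the highest. Without animal 2 the list median was 0.21, without animal 3 it was 0.20, and without animal 1 it was 0.51. The number of its genes at an unadjusted p below 0.05 ran from 2 without animal 3 to 13 without animal 1. The spread of the interaction over genes was also widest in animal 1, with an SD of 0.77 against 0.55 to 0.63 in the other animals.

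Serine, one-carbon and asparagine synthesis genes, 8 of whose 14 tested members are also in the ATF4 list, had a median interaction of 0.44. Of the 14, 13 were positive, beside 50.3% of all genes. At an unadjusted p below 0.05, 4 were positive, beside 2.08% of all genes: Cth, Shmt2, Asns and Mthfd1. The list mean was -0.12 in animal 1 and 1.04 in animal 3, and the median was 0.19 without animal 3 and 0.28 without animal 2. Cth, the enzyme that makes cysteine from cystathionine, had 1.22 ± 0.53, and its counts were low. Its NS_PI libraries ranged from 1.67 to 5.20 CPM, near the floor of 3 counts, and its NS libraries from 2.31 to 20.0 CPM. Mthfd1, a cytosolic folate enzyme that is not in the ATF4 list, fell with stretch in vehicle (-0.79, adjusted p 0.013) and was -0.12 with inhibitor, an interaction of 0.68 ± 0.31.

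Aminoacyl-tRNA synthetases, which charge transfer RNA and share no member with the ATF4 list, leaned the same way. Of 23 tested, 20 were positive with a median of 0.27. This stood beside 50.3% of all genes and 62.0% of genes called higher for the average stretch effect. At an unadjusted p below 0.05, 4 were positive, beside 2.08% of all genes: Nars (0.49 ± 0.18), Lars (0.67 ± 0.25), Mars (0.63 ± 0.28) and Eprs (0.46 ± 0.21). The median stretch effect was 0.05 in vehicle, with 3 of 23 called higher, near the 12.5% of all genes. It was 0.32 under inhibitor, with 9 of 23 called higher, beside 15.2% of all genes. In unstretched cells 21 of the 23 were lower with inhibitor (median -0.37, 12 at an unadjusted p below 0.05, beside 2.91% of all genes), from libraries that enter the interaction too. The methionine enzyme Mars stood at 132, 225, 153, 121 and 102 CPM in NS, at 174, 89.6, 90.2, 106 and 136 CPM in S, at 80.0, 111, 71.7, 92.9 and 72.8 CPM in NS_PI and at 137, 101, 103, 96.1 and 105 CPM in S_PI. The NS library was the highest of the 4 in animals 2, 3 and 4, NS_PI was below NS in every animal, and the groups overlapped. By animal, the list mean was -0.14, 0.45, 0.57, 0.23 and 0.08. Without animal 2 the list median fell to 0.11 and without animal 3 to 0.12.

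Amino acid transporters (17 tested, 7 of them in the ATF4 list) had a median of 0.23, with 12 positive. At an unadjusted p below 0.05, 3 were positive and 1 negative, beside 2.08% and 2.07% of all genes. The list mean was -0.34 in animal 1, and the median was 0.13 without animal 3, 0.14 without animal 5 and 0.36 without animal 1. The positive ones were Slc7a11, the glutamine carrier Slc1a5 (0.62 ± 0.27) and the cationic carrier Slc7a1. The negative one was the low-count Slc38a7 (-1.10 ± 0.43, mean 8.09 CPM). Slc7a1 stood at 125, 204, 228, 137 and 167 CPM in NS and 310, 327, 305, 299 and 364 CPM in S. It was 90.3, 60.0, 72.2, 103 and 120 CPM in NS_PI and 225, 231, 264, 236 and 263 CPM in S_PI. NS_PI lay below NS, and S_PI below S, without overlap, and Slc7a1 rose with stretch in both arms (0.91 and 1.46). Its interaction of 0.55 came from animals 2 and 3 (1.25 and 1.43), with 0.0014, 0.067 and 0.010 in animals 1, 4 and 5. It was 0.37 without animal 2 and 0.31 without animal 3.

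**Figure D4:**
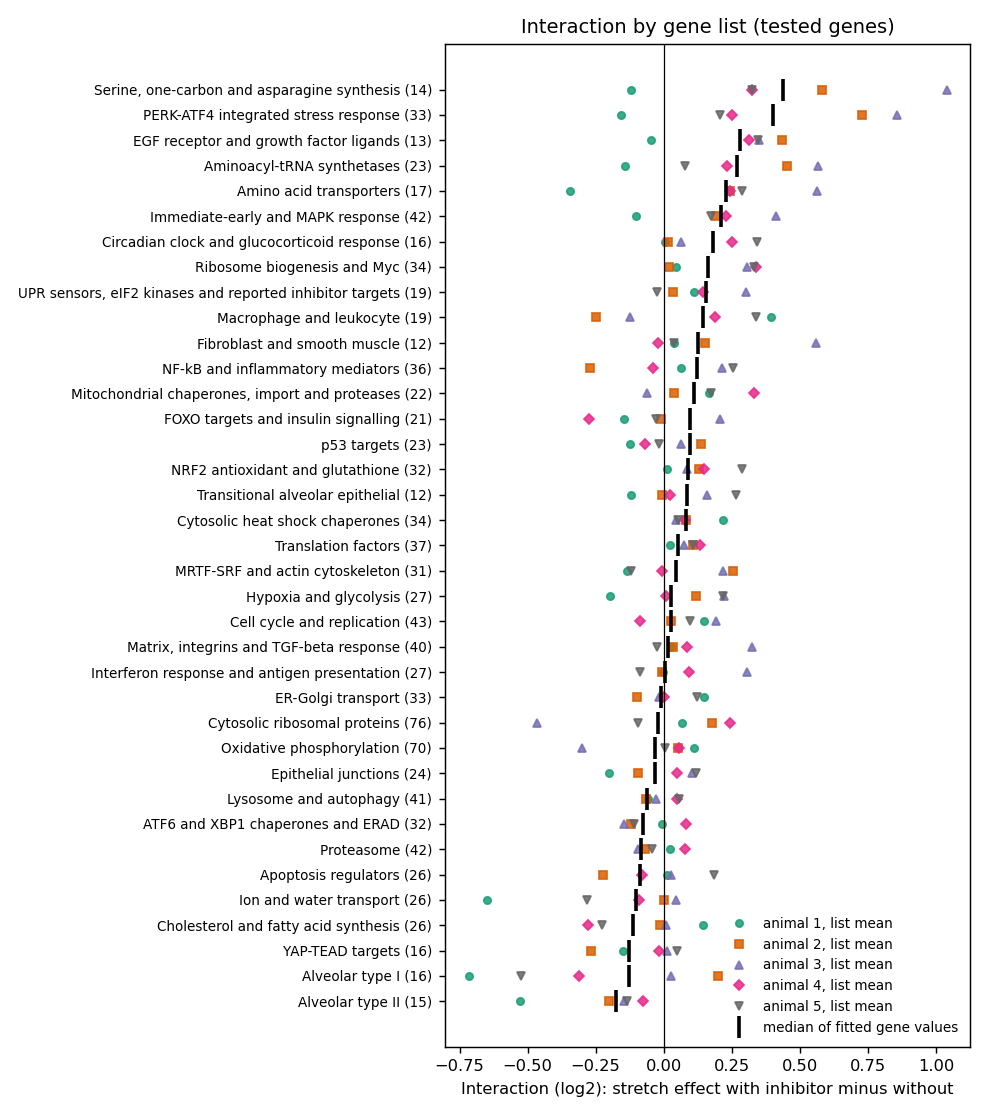
Median log2 interaction of each gene list (horizontal axis), with the mean of each of the 5 animals as a separate point, and the number of tested genes beside the name. The lists of serine metabolism and ATF4 targets have the largest positive medians. Growth factor ligands and receptors (0.28, 13 genes) and tRNA synthetases (0.27) follow. In each of these lists animal 1 lies on the other side of 0 from the median.

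For the other branches of the unfolded protein response the list median was near 0, while single members ran from -0.83 to 0.56. Among 32 chaperones and degradation factors under ATF6 and XBP1, the median was -0.08, 10 were positive, and 1 was positive (Syvn1, a ubiquitin ligase of the endoplasmic reticulum, 0.56 ± 0.25) and 1 negative (the lectin Os9, -0.48 ± 0.21) at an unadjusted p below 0.05. Hspa5, the chaperone BiP, was abundant at 9140, 8049, 10418 and 8921 CPM in the NS, S, NS_PI and S_PI means, and its interaction of -0.03 had an interval of -0.53 to 0.47. Dnajb9, a BiP cochaperone, rose with stretch in both arms (0.54 and 0.90), an interaction of 0.36 ± 0.22. Xbp1 and Atf6, transcription factors of these branches, had 0.13 ± 0.32 and 0.50 ± 0.30. The estimates of Dnajb9 and Atf6 were no smaller than that of Atf4 (0.29 ± 0.21). Ern1, the sensor IRE1 alpha, was too low to test, with 25 counts over all libraries. Over 19 sensors, eIF2 kinases and reported targets of the inhibitor, the median was 0.15, 12 were positive, and 0 passed an unadjusted p below 0.05.

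Lists of growth control differed in sign. Ribosome biogenesis genes (34 tested) had a median of 0.16 with 28 positive, and 0 of them reached an unadjusted p below 0.05 in either direction. They were positive on average in 5 of 5 animals, from 0.02 to 0.34. Cytosolic ribosomal proteins (76 tested) had a median of -0.02, 30 positive, and 37 translation factors a median of 0.05, 22 positive. Oxidative phosphorylation genes (70 tested) had a median of -0.03, 31 positive. Within these families the intervals were narrow: 70 of 76 ribosomal protein genes, 37 of 37 translation factors and 64 of 70 oxidative phosphorylation genes had the whole interval within 1 log2 unit of 0.

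Immediate-early genes (42 tested) had a median of 0.21, 27 positive, with Fosl1 and Atf3 at an unadjusted p below 0.05. The median was 0.10 without animal 3 and 0.12 without animal 2. Fosl1, an AP-1 subunit, stood at 3.23, 6.41, 6.82, 6.48 and 8.68 CPM in NS and 34.7, 53.5, 48.2, 19.3 and 18.7 CPM in S. It was 1.40, 2.50, 0.527, 2.79 and 2.97 CPM in NS_PI, near the floor of 3 counts, and 28.1, 38.4, 33.2, 13.7 and 29.3 CPM in S_PI. NS_PI lay below NS and both lay below the stretched groups, which overlapped one another. The fitted interaction was 1.33 ± 0.51. At such low counts in NS_PI, the log2 CPM values per animal depend on the prior count. Among 13 growth factor ligands and receptors the median was 0.28 and 11 were positive. Vegfa, the endothelial growth factor and also a type I cell marker, was 0.56 ± 0.19 and positive in 5 of 5 animals. Its means were 262 ± 114, 379 ± 79.2, 201 ± 64.1 and 436 ± 95.7 CPM (SD, n = 5) in NS, S, NS_PI and S_PI. Bmp2, a ligand of the TGF-beta family in the matrix list, rose by 1.67 without and 2.64 with inhibitor, an interaction of 0.97 ± 0.33.

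Stress chaperones and redox genes split. Among 34 cytosolic heat shock genes the median was 0.08. At an unadjusted p below 0.05, 2 were positive and 2 negative, beside 2.08% and 2.07% of all genes. Hspa4l, an HSP110 type exchange factor, was 14.3, 10.4, 11.2, 5.89 and 7.05 CPM in NS and 75.4, 18.6, 16.7, 14.2 and 27.7 CPM in S. It was 8.38, 3.75, 4.75, 4.18 and 1.49 CPM in NS_PI and 95.1, 25.0, 22.7, 34.3 and 23.2 CPM in S_PI. Animal 1 was highest in every group, and the interaction of 1.51 ± 0.41 lay between 1.03 and 1.65 over the animals. Hspa1a, the inducible HSP70, had the opposite sign, -0.73 ± 0.32. Its ranges were 16.8 to 39.6 CPM in NS, 32.6 to 49.8 CPM in NS_PI, 54.7 to 118 CPM in S and 65.4 to 109 CPM in S_PI. The stretched libraries lay above the unstretched ones, and it rose by 1.76 and 1.04. The small chaperone Hspb1 had -0.54 ± 0.24. Of 32 NRF2 and glutathione genes, 4 were positive and 0 negative at an unadjusted p below 0.05, beside 2.08% and 2.07% of all genes. The 4 were Slc7a11, the ferritin light chain Ftl1 (1.20 ± 0.49), sulfiredoxin Srxn1 (0.78 ± 0.31) and the aldo-keto reductase Akr1b8 (0.81 ± 0.34). The list median was 0.09.

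Genes of cholesterol and fatty acid synthesis, which fell with stretch in both arms (16 of 26 called lower without inhibitor and 20 with it, beside 12.4% and 15.3% of all genes), had a median interaction of -0.11. Of these, 9 were positive, and 0 reached an unadjusted p below 0.05. Interferon and antigen presentation genes (27 tested, median 0.01), inflammatory mediators (36, median 0.12), hypoxia and glycolysis (27, median 0.03), actin and SRF targets (31, median 0.04), matrix and TGF-beta genes (40, median 0.01) and cell cycle genes (43, median 0.03) had medians within 0.12 of 0. YAP targets (16, median -0.13) and ion and water transport genes (26, median -0.10) had 6 and 7 positive. The mean of the ion transport list was -0.65 in animal 1 and lay between -0.28 and 0.045 in the others. When 1 animal was left out, its median ran from -0.13 to -0.0018, and that of YAP targets from -0.17 to -0.053.

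Marker lists of cell types were read in the same way, and their part in the results above was not tested. Type I markers had a median of -0.13, 4 of 16 positive, with a mean of -0.72 in animal 1 and 0.20 in animal 2, and type II markers had -0.18, 4 of 15 positive. The type I marker sum over 20 genes ranged from 2609 to 8983 CPM in NS, 1845 to 8183 in S, 2648 to 8683 in NS_PI and 1738 to 7732 in S_PI. The leukocyte marker sum over 23 genes ranged from 2173 to 12225 CPM in NS, 2857 to 16370 in S, 2168 to 11549 in NS_PI and 3533 to 15392 in S_PI, and that list had a median interaction of 0.14. These ranges overlapped across all 4 groups, but they pool the animals, so they do not show change within an animal. In the fit with animal as a term, stretch called 5 of 16 type I markers lower and 1 higher without inhibitor. With inhibitor it called 8 lower and 2 higher. Of 19 leukocyte markers, it called 7 higher without inhibitor and 10 with it, and 0 lower in either arm. Shares of all genes were 12.5% higher and 12.4% lower without inhibitor, and 15.2% and 15.3% with it. Of the endothelial markers Cdh5 and Cldn5 were at 0 in every library and Pecam1 had a mean of 0.20 CPM, while Esam (79.3 CPM), Eng (17.7 CPM) and Ramp2 (7.88 CPM) were detected. The hemoglobin markers Hba1, Hba2 and Hbb were at 0.

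The genes of each sign with the smallest p and a mean of at least 10 CPM are described as values only, since none was called. The smallest p belonged to Desi2, a desumoylating isopeptidase (0.87 ± 0.21, p 0.00048, adjusted p 0.984). Desi2 was 113, 116, 123, 100.1 and 86.8 CPM in NS, 76.4, 130, 118, 79.3 and 70.2 CPM in S, 89.3, 82.9, 74.9, 86.9 and 55.0 CPM in NS_PI and 98.0, 155, 116, 135 and 117 CPM in S_PI. S_PI lay above NS_PI without overlap, while S and NS overlapped. The other positive genes included the nuclear import factors Kpnb1 (1.30 ± 0.34) and Ipo7 (0.64 ± 0.19), the sterol-binding protein Osbpl11 (1.21 ± 0.31), the electron transfer enzyme Etfdh (1.17 ± 0.34), the coatomer subunit Arcn1 (0.78 ± 0.22), the cargo receptor Tmed5 (1.00 ± 0.33) and the endosomal tether Eea1 (0.59 ± 0.19). Cdr2 (0.87), Ptpre (0.81) and Mmd (0.72) were positive too, beside Hspa4l, Slc7a11 and Shmt2. All of these but Ptpre were positive in 5 of 5 animals, but a small p selects for such agreement.

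Negative interactions were led in size by Mia (-1.37 ± 0.47), Ppil2 (-1.29 ± 0.39) and RT1-CE14 (-1.24 ± 0.36). RT1-CE14 belongs to the class I histocompatibility family, whose near-identical copies make its counts uncertain, and it ranged from 70.5 to 161 CPM in animal 1 against 3.81 to 20.7 CPM in the other animals. The cyclophilin Ppil3 (-0.89 ± 0.24) was 28.2, 13.8, 22.9, 26.5 and 38.0 CPM in NS and 30.7, 18.2, 23.5, 26.4 and 25.1 CPM in S. It was 32.6, 18.8, 32.2, 32.5 and 38.6 CPM in NS_PI and 20.6, 10.4, 15.2, 13.0 and 23.2 CPM in S_PI. NS and S overlapped fully, and in each animal S_PI was below NS_PI, with overlap between animals. The SNARE protein Vamp7 (-1.08), Tppp3 (-1.06), the mannosidase Man2c1 (-0.998), Btbd6 (-0.95), Brf1 (-0.91), the nucleotide-pool hydrolase Nudt1 (-0.91), Gpn1 (-0.67), Manbal (-0.67), Fam65a (-0.63), the mitochondrial ribosomal protein Mrps24 (-0.61) and Bloc1s1 (-0.60) filled the set.

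**Figure D5:**
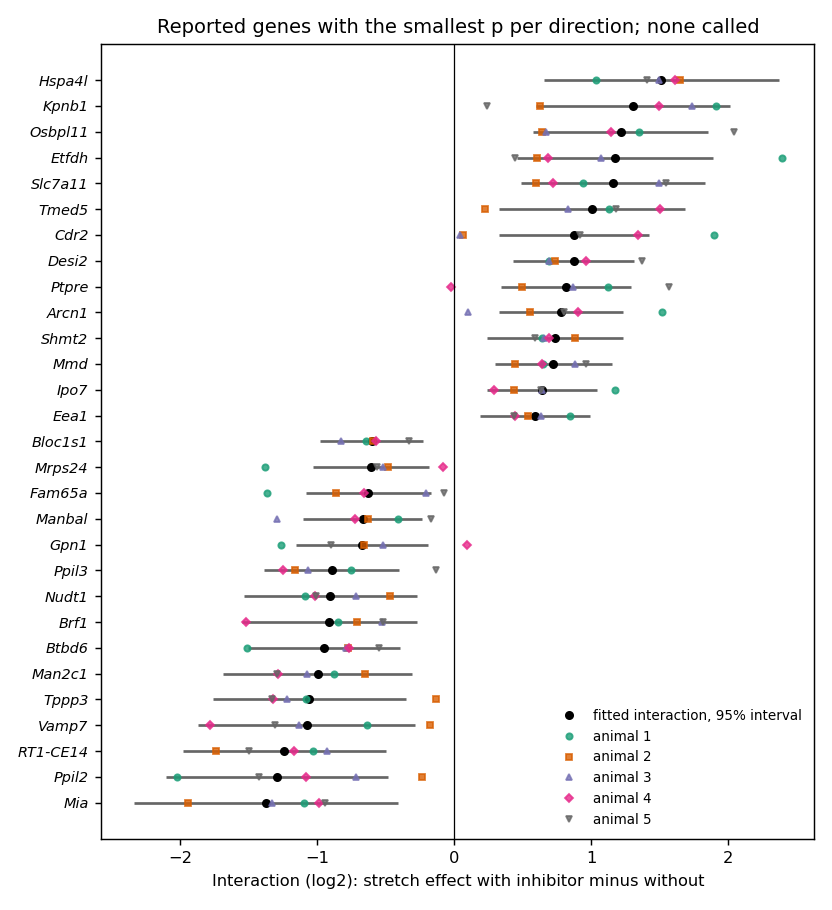
Log2 interaction with its 95% interval (horizontal axis) for the positive and negative genes named above with the smallest p and a mean of at least 10 CPM, with the value of each animal as a point. No gene was called; the intervals miss 0 because these genes were picked by p.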

How the data were processed

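RNA of 20 libraries, 5 in each of 4 groups, was read from the 3' end with QuantSeq forward kits on 75-base single reads, per the labels' protocols. The authors aligned the reads to build rn6 with STAR, counted them per gene with HTSeq and used DESeq2, per the submitters' processing notes. Which versions and gene annotation were used is not stated in these notes. The authors deposited raw counts of reads for 17337 gene symbols, and the 5 summary entries of HTSeq were left out of library sizes and tests. Records outside genes made up 16.2 to 24.5% and records aligned to several places 35.5 to 57.7% of all records. A deposited table of the authors' DESeq2 results was not used here.

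Genes were filtered with filterByExpr on the 4 groups (8320 kept), scaled by TMM and fitted with edgeR 4.0.16 in R 4.3.3, with group and animal as terms (12 residual degrees of freedom). The quasi-likelihood test gave the interaction and the 4 simple contrasts, with Benjamini-Hochberg adjustment over all tested genes and calls at an adjusted p below 0.05. Differences between animals in the stretch effect have no term of their own in this fit and entered the residual spread. The values per animal are (S_PI minus NS_PI) minus (S minus NS) on log2 CPM with a prior count of 2. limma 3.58.1 and DESeq2 1.42.0 were alternatives, as were other scalings, filters and blocks, and leaving out each animal. The scripts were tested on simulated counts. Animals are separate rats. With animal as a term, the edgeR p-values rest on the spread of libraries left after group and animal, moderated across genes. Only the limma test on 1 contrast value per animal uses the spread of the interaction between animals, also moderated across genes. No molecular identifiers are named in the labels, so counting intervals cover counting error only.

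The labels' protocols pool monolayers of 1 animal per library and the titles number the animals. Libraries of the same number deviated from their group means together in 30 of 30 pairs (median r 0.48, lowest 0.32). For different numbers the median r was -0.17. Deviations from a group mean sum to 0 over its 5 libraries. A positive r within numbers thus goes with a negative r between numbers by construction. Of the 20 libraries, 20 correlated best with their own number. The interaction values of different animals had r of -0.01 to 0.13 across genes.

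The comparison and the gene lists were chosen with earlier results of these data known, so lists were described by counts and medians with no test. Genes named are the 15 of each sign with the smallest unadjusted p and at least 10 CPM (no gene being called; 1 of them is not reported here), core genes of the unfolded protein response, and up to 4 members per list with the smallest unadjusted p; Herpud1 and Iars were added for their promoter motif, and other exceptions are stated. Of 8320 tested symbols, 8237 matched the RefSeq gene table (494 by a synonym) and 6839 had a RefSeq promoter in GRCr8.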

Additional observations from a re-analysis of the deposited data

Results flagged for a closer look

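Of 117 sets of 5 animal values examined, 7 held 1 animal far from the other 4 by Dixon's criterion (gap over range above 0.71), and chance alone gives about 1 in 20. Tppp3, a microtubule-binding protein, had an interaction of -0.13 in animal 2 against -1.33 to -1.08 in the other 4. Btbd6 had -1.51 in animal 1 against -0.79 to -0.55. Hspa5 had -0.34 in animal 2 against -0.02 to 0.08. The mean of the oxidative phosphorylation list was -0.30 in animal 3 against 0.00 to 0.11. Animal 1 stood apart in 3 list means: the growth factor list at -0.046 against 0.31 to 0.43, the heat shock list at 0.22 against 0.05 to 0.08, and the type II marker list at -0.53 against -0.20 to -0.08. Animal 1 also had the widest spread of the interaction over genes, with 18.1% of genes beyond 1 log2 unit against 7.45 to 10.2% in the others.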

How the results depend on the processing

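No gene was called by edgeR or limma under any setting tried. DESeq2 with its own filtering called 2 higher and 1 lower, all with at most 9 counts in total. With no replicate block edgeR called 0 (68 positive and 58 negative genes at an unadjusted p below 0.05), and with a block for each stretch pair 0 (137 and 140). Leaving out 1 animal gave 0 each time, with 104 to 156 positive and 144 to 202 negative genes at that p. Of 86 genes followed by name, 80 kept their sign in every alternative run, 18 per gene except 17 for Slc38a7, which is below the 10 CPM filter. The others crossed 0 only when an animal was left out, over these ranges without 1 animal: Ddit3 ranged from -0.050 (without animal 2; -0.0068 without animal 4) to 0.26, Trib3 from -0.087 (without animal 3) to 0.54, Hspa5 from -0.10 to 0.027 (without animal 2), Xbp1 from -0.036 (without animal 5) to 0.22, Herpud1 from -0.33 to 0.14 (without animal 1) and Scnn1g from -1.12 to 0.048 (without animal 1). Scnn1g, which is at 0 in some libraries, was -1.86 with limma at a prior count of 0.5. List medians near 0 did not hold their sign without 1 animal. Ribosomal proteins ran from -0.10 to 0.064, inflammatory mediators from -0.026 to 0.12, interferon genes from -0.073 to 0.065 and hypoxia genes from -0.072 to 0.044. Apoptosis regulators ran from -0.16 to 0.036, FOXO targets from -0.066 to 0.14, junction genes from -0.15 to 0.010 and ER to Golgi genes from -0.063 to 0.037. Actin genes ran from -0.026 to 0.062, matrix genes from -0.034 to 0.015 and transitional markers from -0.0054 to 0.095. Medians also moved for NRF2 genes (-0.024 without animal 4 to 0.060), lysosome genes (-0.11 to 0.014 without animal 1), endothelial markers (-0.31 to -0.086, and -0.26 with no replicate block) and mesothelial markers (-0.13 without animal 1 to 0.25), the last pair with 3 genes each; the cause was not tested. Within 100 bases before the start, the AP-1 motif was in 3.70% of ATF4 response promoters, the TEAD motif in 0% of these and of tRNA synthetase promoters, and the TATA motif in 0% of the latter, a shorter window by construction. Depth and 5 animals limit the result: only 5558 of 8320 genes had an interval wholly within 1 log2 unit of 0.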

Other observations

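Lists not described above had these medians, against 0.00 for all genes. ER to Golgi transport genes (33 tested) had a median interaction of -0.01, epithelial junction genes (24) -0.03, lysosome and autophagy genes (41) -0.06, the proteasome (42) -0.08, apoptosis regulators (26) -0.09, p53 targets (23) 0.10, FOXO targets (21) 0.10, mitochondrial chaperones (22) 0.11 and clock genes (16) 0.18. The clock genes had 11 of 16 positive and a positive mean in 5 of 5 animals, and their median was 0.028 to 0.17 when 1 animal was left out. Marker lists of transitional epithelium (12 tested, 0.08) and fibroblasts (12, 0.13) were also above 0. Of these markers 7 of 12 and 10 of 12 were positive, beside 50.3% of all genes. The 3 tested airway markers had a median of -0.54, and the 3 endothelial and 3 mesothelial ones had -0.14 and 0.16; no red cell marker could be tested.

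Single members of these and other lists had an unadjusted p below 0.05 and none was called. Positive ones were the cell cycle kinase Cdk6 (1.01 ± 0.43), which fell with stretch in vehicle (-1.21, adjusted p 0.0084) and was -0.20 with inhibitor, and the NF-kB cofactor Bcl3 (0.80 ± 0.33), which fell in both arms (-1.87 and -1.07). The survival factor Bcl2l2 (0.69 ± 0.28), the clock factor Clock (0.60 ± 0.28), the ribosomal protein Rpl4 (0.63 ± 0.26), the fibroblast proteoglycan Dcn (0.86 ± 0.41) and the leukocyte tetraspanin Cd53 (0.56 ± 0.27) were positive as well. Negative ones were the desmosome protein Pkp2 (-0.62 ± 0.28), the cell cycle inhibitor Cdkn1a (-0.41 ± 0.19), the transcription factor Tead3 (-0.70 ± 0.27), the ubiquitin ligase Trim25 (-0.49 ± 0.23) and the respiratory subunit Uqcr11 (-0.47 ± 0.18).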
